A study of Mus musculus with 4 samples.

Results

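The genes described here encode deaminases that convert adenosine to inosine in RNA: Adar, Adarb1, Adarb2 and Adat1. They were found by gene symbol in the expression tables of spinal motor neurons, where each had a single entry, so they make up 4 of the 27189 genes listed. All 4 had a mean RPKM (uniquely mapped reads per kilobase of transcript, scaled to library depth) of at least 1 over the libraries and were among the 11530 genes tested.

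Inosine is read as guanosine by the ribosome and by reverse transcriptase, so that deamination of an adenosine can change a codon, a splice site or the fate of a double-stranded RNA. Adar encodes ADAR1, which edits long double-stranded RNAs and exists in a constitutive form and in a longer, interferon-induced one. Adarb1 encodes ADAR2, the enzyme that edits the Q/R site of the AMPA receptor gene Gria2 and that also edits its own transcript. Adarb2 encodes ADAR3, a protein of the brain that binds double-stranded RNA and for which no editing activity is established. Adat1 encodes a deaminase of alanine tRNA, related to the ADARs through its catalytic domain. The study examined Gria2 editing because it had been reported to be reduced in motor neurons of patients with sporadic ALS. It found the Gria2 transcript extensively edited and saw no difference in editing efficiency between the genotypes. The tables analyzed here hold 1 expression value per gene and no base calls, so the level of editing itself is not analysed here.

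RNA came from laser-captured cell bodies of large ventral horn neurons, with 2 libraries from wild-type SOD1-YFP mice (strain 592) and 2 from G85R SOD1-YFP mice (strain 737), each from 1 animal. Mice of both strains were 3 months old, of C57BL/6J x SJL/J background and carried a fragment of the human SOD1 gene with yellow fluorescent protein joined to the end of its coding sequence. The G85R strain had many more transgene copies and carried the G85R mutation, so that mutation, copy number and strain cannot be told apart. In the G85R animals, cells with large aggregates had been left out of the capture. Non-transgenic animals were not analysed here.

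The genes defining motor neurons were present, with RPKM of 49.6 to 81.2 for Chat, the enzyme of acetylcholine synthesis, and 15.1 to 18.3 for Mnx1, a motor neuron transcription factor. RNA of other cells was present as well. The 8 astrocyte markers summed to 495 and 487 RPKM in wild-type replicates 1 and 2 and to 797 and 513 in G85R replicates 1 and 2. Most of these sums was Aldoc, with 458 and 443 RPKM in wild-type and 671 and 458 in G85R. Gfap had the largest log2 difference of the list, 1.86, with 11.5 and 17.1 RPKM in wild-type versus 91.9 and 28.4 in G85R. Its value in G85R replicate 2 thus also lay above both wild-type values, and leaving out G85R replicate 1 does not remove this difference. G85R replicate 1 was the highest library for each astrocyte marker, but by little for some, such as Gjb6 (7.69, against 7.63 in wild-type replicate 2). The 10 microglia markers summed to 17.3 and 18.5 in wild-type and to 39.5 and 19.4 in G85R, so that G85R replicate 1 stood apart in both lists. None of the markers was listed at 0 in all libraries. The 11 motor neuron markers summed to 2245 and 2673 in wild-type and to 1626 and 2278 in G85R. Most of these sums was Prph (757 and 870 in wild-type, 647 and 709 in G85R) and Calca (748 and 884 in wild-type, 340 and 718 in G85R). Oligodendrocyte markers summed to 952 and 910 RPKM in wild-type and to 1131 and 875 in G85R. The genotypes overlapped there, and G85R replicate 1 was again the highest library. Endothelial markers summed to 11.8 and 12.0 in wild-type and to 10.7 and 10.0 in G85R. The values of each deaminase without G85R replicate 1 are therefore given beside the others.

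What the proteins share is a deaminase domain with a histidine, an alanine and a glutamate at the active site. The windows below show the codons of these residues in capitals, 5′ to 3′ on the coding strand, in the NCBIM37 assembly (mm9), and are printed because they are the part of the sequence that places the genes in 1 family.
Adar: aatgactgcCATGCCGAAatcatctcccgg
Adarb1: aatgactgcCACGCAGAGataatctcccga
Adarb2: aacgactgtCATGCTGAGatcgtggcgagg
Adat1: aatgacagcCATGCTGAGatcatagccaga
The Adar window lies at chr3:89550537-89550566 on the plus strand, in exon 9 of 15 of the transcript with the longest coding sequence, and that of Adarb1 at chr10:76776197-76776226 on the minus strand, in exon 6 of 11. For Adarb2 it is chr13:8696958-8696987 on the plus strand, in exon 5 of 10, and for Adat1 chr8:114511737-114511766 on the minus strand, in exon 4 of 10. All are coding. Adar and Adarb1 had 25 of 30 bases in common, the most of any pair, and Adarb1 and Adarb2 had 19, the fewest. Adat1 had 23 bases in common with each of the others. Adarb2 thus has these codons of the active site although no activity is established for its protein. Other residues of the active site were not examined.

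Receptor transcripts are among the substrates of editing by the ADARs, and the study examined that of Gria2 in motor neurons. In the following windows the capitals mark the edited codon of Gria2, the codons of Gria3 and Gria4 that align with its Q/R site, and, in Htr2c, the run of codons in which the edited adenosines lie.
Gria2 Q/R site: ggtgcctttatgCAGcaaggatgcgatatt
Gria3: ggtgcttttatgCAGcaaggatgtgatatt
Gria4: ggtgcctttatgCAAcaaggatgtgacatt
Gria2 R/G site: catcgccacacctaaaggatcctcattaAG
Htr2c: gtagcaATACGTAATCCTATTgagcatagc
The Q/R window of Gria2 lies at chr3:80510818-80510847 on the minus strand, in coding exon 11 of 17, and its marked codon is codon 607. The genome encodes a glutamine at this codon, and editing of the middle base makes it an arginine codon, which lowers the calcium permeability of the channel. Gria3 (chrX:38963430-38963459, plus strand) and Gria4 (chr9:4464122-4464151, minus strand) also encode glutamine here and are not known for editing at this place. The R/G window (chr3:80496207-80496236, minus strand) ends at the edge of exon 13, with the first bases of codon 764, and its edited adenosine sets how fast the receptor recovers from desensitization. The marked run of Htr2c (chrX:143604223-143604252, plus strand, exon 5 of 6) holds a cluster of editing sites that alter the coupling of the serotonin receptor to G proteins.

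Of the 4 genes, Adarb1 (Entrez Gene 110532, chromosome 10, minus strand, 76753471 to 76881015) had the highest level. Its RPKM was 35.0 and 37.1 in wild-type replicates 1 and 2 and 35.2 and 34.5 in G85R replicates 1 and 2. Both G85R values lay near the lower wild-type value, and the genotypes overlapped. Its level exceeded that of 80.6% of the tested genes, and the depth behind it was an estimated 4496 to 5505 reads per library. The reads were estimated as the RPKM divided by the value of 1 read, which is the difference between the RPKM that the authors deposited with and without 1 added read.

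Adarb1 differed between the genotypes by -0.05 on the log2 scale (G85R minus wild-type, standard error 0.10, adjusted p = 0.933 from limma), with a 95% interval from -0.29 to 0.19. In linear terms the interval runs from 0.819-fold to 1.14-fold. Limma fits a linear model to each gene, here on log2(RPKM + 0.1), and its adjusted p is corrected over the 11530 tested genes by the Benjamini-Hochberg method. Over the 4 libraries the spread of Adarb1 was small, with SDs of 1.46 RPKM in wild-type versus 0.510 in G85R (n = 2 each). Without G85R replicate 1 its log2 difference was -0.06.

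Adar (Entrez Gene 56417, chromosome 3, plus strand, 89518944 to 89557368) was expressed at nearly the same level, with 34.0 and 29.6 RPKM in wild-type versus 34.8 and 28.3 in G85R. In both genotypes replicate 1 was the higher library and replicate 2 the lower. The spread between replicates was larger than the difference between the genotype means. For 36.6% of the tested genes, both replicates 1 likewise lay on the same side of both replicates 2. The log2 difference of Adar was -0.01 (standard error 0.14, adjusted p = 0.986 from limma), with a 95% interval from -0.34 to 0.31, or 0.789-fold to 1.24-fold. Its sign is not determined: quantile normalization gave 0.00034 and scaling to a common median ratio 0.0088, and without G85R replicate 1 it was -0.16. Adar was counted from 4126 to 5100 estimated reads per library and exceeded 78.3% of the tested genes in level. The entry combines 5 transcripts of the UCSC cluster, so the constitutive and interferon-induced forms are not separated.

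**Figure D1:**
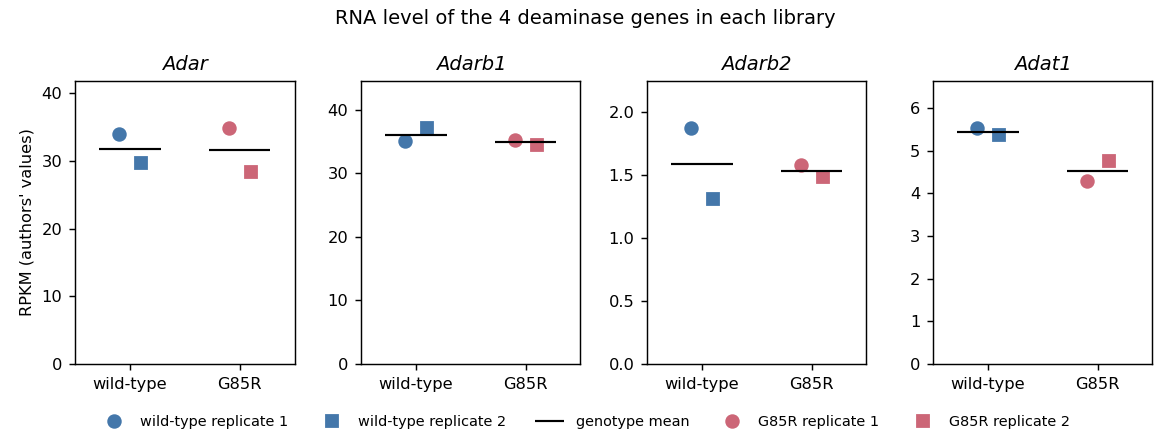
RPKM of each deaminase gene (vertical axes, each from 0 and on its own scale) in the 2 wild-type and the 2 G85R libraries. Points are libraries, circles for replicate 1 and squares for replicate 2, and lines are genotype means; only Adat1 has both G85R values (4.29 and 4.76) below both wild-type values (5.53 and 5.36).

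Adarb2 (Entrez Gene 94191, chromosome 13, plus strand, 8202112 to 8767993) had the lowest level of the 4. The RPKM was 1.87 and 1.31 in wild-type versus 1.58 and 1.48 in G85R, from 204 to 274 estimated reads, and only 7.72% of the tested genes lay below it. Both G85R libraries fell between the wild-type ones. The log2 difference was -0.03 (standard error 0.24, adjusted p = 0.980 from limma). Its 95% interval, from -0.59 to 0.53, is the widest of the family. A change of up to 1.44-fold upward or to 0.663-fold downward therefore lies within the interval. Without G85R replicate 1 the difference was -0.08, and after quantile normalization it was 0.013, on the other side of 0. The annotated pseudogene Gm10357 lies on the opposite strand within an intron of Adarb2.

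Adat1 (Entrez Gene 30947, chromosome 8, minus strand, 114490808 to 114516202) was the gene with the largest difference. It had 5.53 and 5.36 RPKM in wild-type versus 4.29 and 4.76 in G85R, from 476 and 491 estimated reads in wild-type, against 337 and 398 in G85R. The genotypes did not overlap, with the lower level in G85R. The log2 difference was -0.26 (standard error 0.14, adjusted p = 0.553 from limma). The level in G85R was 0.833-fold that in wild-type, with a 95% interval from 0.666-fold to 1.04-fold. The unadjusted p was 0.0968. Larger differences of either sign were found in 2461 tested genes (21.3%). The difference was -0.19 without G85R replicate 1, the library with the higher astrocyte and microglia sums, and -0.34 without G85R replicate 2. Beside it, 7 of 8 astrocyte markers and all 8 tested microglia markers had higher mean values in G85R, and 9 of 10 tested motor neuron markers lower ones. Limma called none of these markers, while the log-linear test named by the study, run on rounded RPKM, called Gfap and Aldoc of the astrocyte list and Prph and Calca of the motor neuron list. The study itself reported Prph and Calca as reduced in G85R motor neurons, and found the change of Calca again by quantitative PCR. It also found C1qa, of the microglia list, higher in G85R by that method, and called its source, motor neurons or surrounding glia, unclear. From Gfap RNA measured in captured neurons against total ventral horn, it concluded that contamination by astrocyte RNA was minimal. In the libraries read here, Gfap was higher in both G85R libraries than in both wild-type ones. The part of these markers in the difference of Adat1 was not tested. In bulk RNA, fewer cells of a type and less RNA per cell cannot be told apart.

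Adat1 was the only 1 of the 4 deaminases without overlap of the genotypes, and none of the 4 passed the limma test. Of all 11530 tested genes, 41.2% had genotypes that did not overlap, 23.9% with lower and 17.3% with higher values in G85R, so that 1 of 4 deaminases is not a result about this family. An adjusted p under 0.05 from limma was found for 0.642% of tested genes (0.269% higher and 0.373% lower in G85R), and an unadjusted p under 0.05 for 11%. In that log-linear test, for which 1 read was added to each gene, the adjusted p was 1 for each deaminase. The unadjusted p of the log-linear test ranged from 0.654 for Adat1 to 1 for Adarb2. Rounded RPKM served there as counts, although Adat1 rested on 337 to 491 estimated reads and Adarb2 on 204 to 274. At such low RPKM a change of moderate size could hardly be called, so for these genes the test decides nothing. That test called 0.228% of all 27189 genes, and gave 1.29% an unadjusted p under 0.05. For values taken one gene at a time, 2 libraries against 2 allow no p under 0.333 by permutation.

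**Figure D2:**
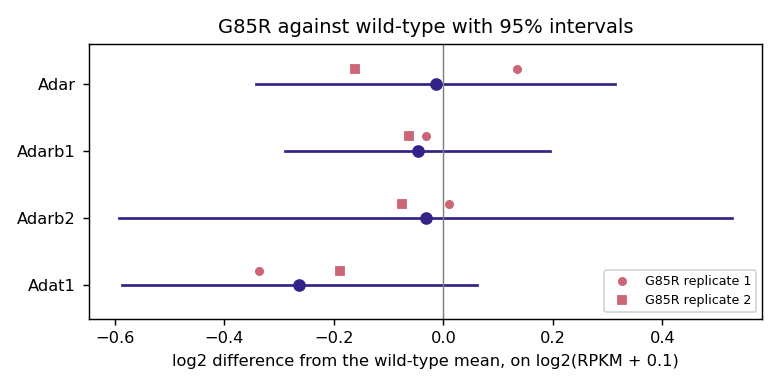
Log2 difference of G85R from wild-type for each deaminase gene (dark points, from limma on log2(RPKM + 0.1)) with its 95% interval (lines). The red symbols are each G85R library against the wild-type mean; all 4 intervals include 0, and that of Adat1 reaches from -0.59 to 0.06.

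The order of the levels was Adarb1, Adar, Adat1 and Adarb2, on the RPKM scale, which is per length. Adarb1 exceeded Adar within each of the 4 libraries, but their ranges over libraries, 34.5 to 37.1 and 28.3 to 34.8, overlapped. Adat1 lay below the lowest Adar value in every library and above the highest Adarb2 value. The ratio between the active enzymes that act on double-stranded RNA was near 1 in both replicates 1 and higher in both replicates 2. For Adarb1 over Adar it was 1.03 and 1.25 in wild-type replicates 1 and 2 and 1.01 and 1.22 in G85R replicates 1 and 2. On the log2 scale the wild-type mean was 0.18 ± 0.20 and the G85R mean 0.15 ± 0.19 (SD, n = 2 each, p = 0.667, exact permutation test, two-sided). The smallest p this test can give here is 0.333.

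Expressed as a share of the summed RPKM of Adar, Adarb1 and Adarb2, Adarb1 accounted for 49.4% and 54.5% in wild-type versus 49.2% and 53.6% in G85R. The genotypes differed by -0.554 percentage points, against SDs of 3.63 and 3.15 (n = 2 each, p = 0.667, exact permutation test, two-sided). Adarb2 made up 1.92% to 2.64% of the sum in all libraries. The sum itself was 70.9 and 68.0 RPKM in wild-type versus 71.6 and 64.3 in G85R.

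**Figure D3:**
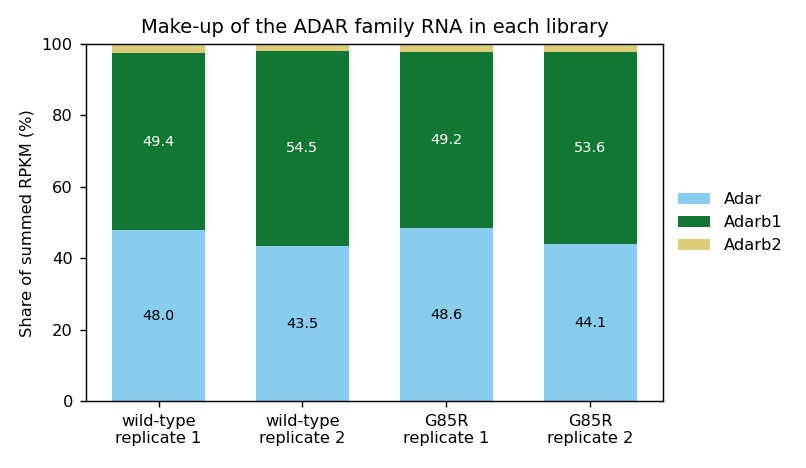
Share of Adar, Adarb1 and Adarb2 in their summed RPKM (vertical axis, percent) in each library, one bar per library. The Adarb1 share is 49.4% and 49.2% in the replicates 1 and 54.5% and 53.6% in the replicates 2, so that the bars differ by replicate number and hardly by genotype. The RPKM of 36.6% of the tested genes also split by replicate number, so this is not particular to these genes.

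Genes with a profile like those of the deaminases were sought among the tested genes by the root mean square difference of log2(RPKM + 0.1), after subtracting the mean of each gene, over 4 libraries. Closest to Adar were Pftk1 (0.0094), Sltm (0.012) and 1110004E09Rik (0.014), which had the same order of libraries. Closest to Adarb1 were AK034141, Dbn1 and Pbx3, with differences of 0.0053 to 0.0071. For Adarb2 they were Rad52, Ccnc and Taz (0.013 to 0.015), and for Adat1 Zyg11b, 1500041N16Rik and Agtr2 (0.0077 to 0.012). With so few libraries such profiles are common: 3763 tested genes lay within 0.1 of Adarb1 and 1307 within 0.1 of Adat1.

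Other deaminases of adenosine, adenosine-containing RNA or adenylate were read from a list of 9 genes, of which 8 were matched and 4 tested. None was called by limma, and none had an unadjusted p under 0.05. Of the 4 tested genes, 3 were lower in G85R without overlap, where 23.9% of all tested genes were. The median log2 difference over the list was -0.24, and over all tested genes -0.02. Adat2, the catalytic subunit of the enzyme that makes inosine at the wobble base of tRNA anticodons and named Deadc1 in the tables, had 2.41 and 2.87 RPKM in wild-type versus 1.53 and 2.26 in G85R. Its log2 difference was -0.47 (standard error 0.23, adjusted p = 0.524 from limma). Both G85R values lay below both wild-type values, and G85R replicate 1 was the lowest. Adat3, its partner subunit, was below the minimum for testing, with 0.727 and 1.30 in wild-type versus 0.717 and 1.15 in G85R, and overlapped.

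Enzymes of free nucleosides and nucleotides varied in level. Ampd2, an AMP deaminase, had 36.1 and 45.0 RPKM in wild-type versus 30.4 and 35.0 in G85R, a log2 difference of -0.30 (adjusted p = 0.496 from limma). Adal, an adenosine deaminase-like enzyme, had 7.78 and 6.68 in wild-type versus 6.21 and 6.54 in G85R. The genotypes did not overlap in either gene, with lower values in G85R. Ampd3 had 9.16 and 10.7 in G85R, against 9.06 and 9.47 in wild-type. Ada, the adenosine deaminase whose loss causes immunodeficiency, was low, with 0.257 to 0.358 RPKM in all libraries. Adad1, a testis gene of the ADAR family, and Ampd1, the AMP deaminase of muscle, were listed at 0 in all 4 libraries.

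Proteins that bind, modify or import the ADARs, or act on inosine in RNA, were all expressed, with mean RPKM between 2.33 and 62.2 for the 17 genes of the list. None was called by limma and none had an unadjusted p under 0.05. The median log2 difference was -0.01, and 3 of 17 genes (17.6%) had genotypes that did not overlap, all lower in G85R, where 41.2% of all tested genes did not overlap and 23.9% did so with lower values. These were Endov, an endonuclease that cuts RNA at inosine (3.03 and 3.08 RPKM in wild-type, 2.57 and 2.68 in G85R), Fmr1, which encodes the fragile X protein (7.32 and 6.94, 6.64 and 6.33), and Elavl1, which encodes the RNA-binding protein HuR (10.0 and 9.05, 8.82 and 8.64). Their log2 differences were -0.21, -0.14 and -0.12, and their adjusted p from limma lay between 0.706 and 0.805. Wwp2, the ubiquitin ligase that targets ADAR2, had 13.4 and 14.3 in wild-type versus 12.6 and 13.7 in G85R. The genotypes overlapped for Wwp2.

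**Figure D4:**
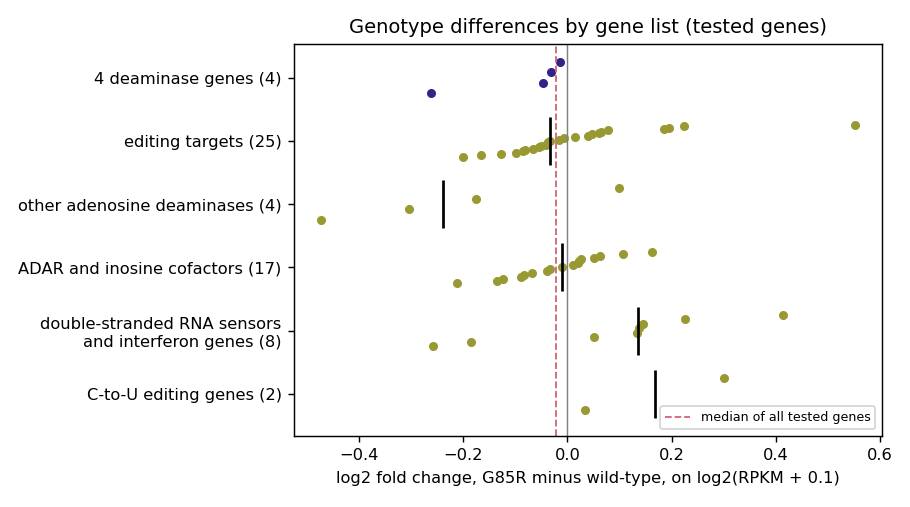
Log2 difference of G85R from wild-type (horizontal axis, on log2(RPKM + 0.1)) for the deaminase genes and for the tested genes of 5 lists, with the number of genes in brackets. Each point is 1 gene, black lines are list medians and the dashed line is the median of all tested genes (-0.02); none of the genes plotted has an adjusted p under 0.05.

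Transcripts known to be recoded by editing were present throughout, since all 25 genes of that list passed the minimum for testing. None was called by limma, 1 had an unadjusted p under 0.05, and 3 (12%) had genotypes that did not overlap, where 41.2% of all tested genes had such genotypes. The median log2 difference was -0.03, with 10 genes higher and 15 lower. Gria2 (Entrez Gene 14800, chromosome 3, minus strand, 80488858 to 80606713) had 12.6 and 13.1 RPKM in wild-type versus 12.0 and 13.01 in G85R. The genotypes overlapped, with a log2 difference of -0.04 (standard error 0.12, adjusted p = 0.9499 from limma). Its 95% interval was -0.32 to 0.23.

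The other edited AMPA receptor genes had higher levels than Gria2. Gria3 had 56.8 and 54.1 RPKM in wild-type versus 56.7 and 60.4 in G85R, and Gria4 had 73.3 and 64.2 in wild-type versus 63.8 and 68.5 in G85R. In these genes the genotypes overlapped. Htr2c, which encodes a serotonin receptor, had 13.9 and 12.2 RPKM in wild-type versus 11.3 in both G85R libraries, a log2 difference of -0.20 (adjusted p = 0.630 from limma). Cyfip2, which encodes a partner of the fragile X protein, had 101.3 and 111.2 in wild-type versus 97.2 and 100.96 in G85R, with both G85R values lower.

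Flna, which encodes the actin crosslinker filamin A, was the only edited gene on the list that was higher in G85R without overlap. It had 1.63 and 2.09 RPKM in wild-type versus 2.98 and 2.54 in G85R, a log2 difference of 0.55 (standard error 0.20, adjusted p = 0.388 from limma). Beside it, the summed astrocyte markers, mostly Aldoc, and the summed microglia markers were also higher in both G85R libraries than in the wild-type ones. Their part in the difference of Flna was not tested. Kcna1, a potassium channel gene edited in its pore region, and Gabra3, a GABA receptor gene, overlapped between the genotypes, at 118 to 129 and 13.7 to 15.8 RPKM.

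Editing by ADAR1 keeps cellular double-stranded RNA from being sensed as viral, and its longer form is induced by interferon. Of 27 genes for double-stranded RNA sensing and interferon response, only 8 had a mean RPKM of at least 1. The other 19 had mean RPKM of 0.0108 to 0.893. Among the latter were Ifih1, the sensor restrained by ADAR1 (0.0999 to 0.159 RPKM), and the interferon-induced genes Isg15 (0.163 to 0.410) and Ifit1 (0.142 to 0.207). Mx1 was listed at 0 in 2 libraries and reached 0.0254 in the others.

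None of the 8 tested genes was called by limma, and none had an unadjusted p under 0.05. Their genotypes did not overlap in 6, of which 4 were higher and 2 lower in G85R. Among all tested genes 41.2% did not overlap, 17.3% with higher and 23.9% with lower values. The median log2 difference was 0.14 over the list and -0.02 over all tested genes. Irf9, a subunit of the interferon-activated transcription factor and named Isgf3g in the tables, had 1.75 and 1.61 RPKM in wild-type versus 2.24 and 2.30 in G85R (log2 difference 0.41, adjusted p = 0.472 from limma). Eif2ak2, the kinase PKR that is activated by double-stranded RNA, had 3.65 and 3.76 in wild-type versus 4.08 and 4.13 in G85R (0.14, adjusted p = 0.799 from limma). Mavs, the adaptor of the RNA sensors, had 1.14 and 1.04 in wild-type versus 1.16 and 1.43 in G85R, and Ifnar1, an interferon receptor chain, 3.88 and 3.55 in wild-type versus 3.26 and 3.25 in G85R.

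Enzymes of the other kind of base editing, from cytidine to uridine, and their relatives were mostly low. Of 10 genes, 9 were matched and 2 were tested, Cda and Cdadc1, named after their values were seen. Cda, a cytidine deaminase of free nucleosides, had 53.1 and 29.7 RPKM in wild-type versus 44.3 and 54.1 in G85R, and overlapped. Cdadc1 had 28.4 and 26.2 in wild-type versus 28.4 and 27.6 in G85R. Apobec1, the enzyme that edits apolipoprotein B RNA, had 0.112 to 0.186, far below the 28.3 RPKM of the lowest Adar value.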

How the data were processed

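Poly(A) RNA of motor neuron cell bodies was sequenced in 4 libraries, 2 per genotype. The authors mapped the reads with Bowtie (version 0.12.3 in the submitters' processing notes) to mm9 and splice junctions of UCSC Known Genes, and quantified genes with Cufflinks. The deposited values are RPKM per UCSC gene cluster, scaled by uniquely mapped reads, with and without 1 read added. The estimated reads on genes summed to 21560318 to 25186594 per library. Cufflinks divides reads between isoforms, so these are not counts, and no counting intervals were computed. For each symbol the entry with the highest mean RPKM was used.

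The comparison of G85R with wild-type used limma 3.58.1 (R 4.3.3, eBayes with trend) on log2(RPKM + 0.1), for genes whose mean RPKM reached 1, without a block. Alternatives were other pseudocounts, minima, scalings and eBayes settings, a replicate block and leaving out each library. A gene was called at an adjusted p under 0.05. Fold changes on this scale understate those of low genes. Each library is 1 animal. The log-linear likelihood ratio test of the study was an alternative, as a Poisson model of rounded RPKM. Both tests were tested on simulated data with larger changes than those of the deaminases. The simulations therefore do not show whether differences as small as theirs would be called. The remaining steps were run in Python 3.11.15 (scipy 1.17.1, pandas 2.3.3, numpy 2.4.6, matplotlib 3.10.9).

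Named genes are the deaminases, Gria2, the genes of each list with the 3 largest and the 3 smallest differences among those without overlap, the other adenosine deaminases with a mean RPKM of at least 0.1, the 3 nearest profiles of each member, and, for their role and after their values were seen, Gria3, Gria4, Kcna1, Gabra3, Wwp2, Adad1, Ampd1, Cda, Cdadc1, Apobec1, low interferon genes and cell type markers. Some genes that the rule or the lists would name are not reported here. The genes and lists were chosen with earlier results of these data known. Symbols absent from the tables were matched by older names. Windows of sequence were read from NCBIM37 with its GENCODE annotation.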

Additional observations from a re-analysis of the deposited data

How the results depend on the processing

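None of the 4 deaminases and none of the 5 lists had a call under any alternative run. Adarb1 kept its sign in all 16 alternatives (-0.09 to -0.01), and Adat1 in all 15 (-0.34 to -0.19). The sign of Adar turned after quantile normalization (0.00034) and when scaled to a common median ratio (0.0088), and its range with each library left out was -0.16 to 0.13. Adarb2 turned after quantile normalization (0.013) and ranged from -0.27 to 0.21 with each library left out. A genotype with a single library was then taken to vary like the other. With a minimum mean RPKM of 5, Adarb2 and Adat1 were no longer tested. The number of genes called, 74, became 49 without the trend, 17 with a minimum of 5, 112 with none, 39 after quantile normalization, and 80 to 189 with each library left out (118 without G85R replicate 1, 189 without G85R replicate 2 and 115 without wild-type replicate 1). The causes were not tested. The log-linear test called 62 of 27189 genes. The sums of several entries were not run, since each deaminase has 1 entry. With replicate number as a block, 527 genes were called, and the adjusted p of the deaminases was 0.388 (Adat1) to 0.967 (Adarb2). Replicates of the same number deviated together with a correlation of 0.22 over tested genes, but nothing states what they share. The block left the difference of the Adarb1 to Adar log2 ratio at -0.03 and of the Adarb1 share at -0.554 percentage points. Adarb2 rests on 204 to 274 estimated reads per library, and how far depth sets its interval was not tested.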

Other observations

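Among the interferon genes below the minimum for testing, 5 of 19 were higher and 4 lower in G85R without overlap, where 34.5% of the 7089 untested genes above 0 did not overlap. Those given here were chosen after their values were seen. Oasl2, an interferon-induced gene of the oligoadenylate synthetase family, had 1.06 and 1.31 RPKM in wild-type versus 0.525 and 0.427 in G85R. Its log2 difference was -1.16 in the limma fit without a minimum (adjusted p = 0.618). Dhx58, which encodes the RNA sensor LGP2, had 1.49 and 1.05 in wild-type versus 0.403 and 0.628 in G85R, a log2 difference of -1.16 (adjusted p = 0.725 in the same limma fit). Usp18, an interferon-induced protease, had 0.119 and 0.131 in wild-type versus 0.174 and 0.205 in G85R. Usp18 rested on 6 to 10 estimated reads per library.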
